A study of Mus musculus with 15 samples.

Results

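The genes described here were 10 genes known as targets or parts of the glucocorticoid system: Tsc22d3, Fkbp5, Per1, Ddit4, Sgk1, Klf9, Zbtb16, the glucocorticoid receptor gene Nr3c1, and the metallothionein genes Mt1 and Mt2. They were matched by symbol, and the set was put together with earlier results of these data known. Each symbol matched exactly 1 probe set of the array (for the 4 genes that rose in NOD.LCMV, 10574023 for Mt2, 10377439 for Per1, 10574027 for Mt1 and 10362073 for Sgk1), so the 10 genes stand among 19938 genes measured with an unambiguous symbol. RNA was taken from the thymus, dissected whole, of female mice aged 5 weeks, 2 h after 0.5 µg of peptide had been injected intravenously. NOD.LCMV mice had received a control peptide that binds the class I molecule Db (n = 3) or gp33, a peptide of lymphocytic choriomeningitis virus (n = 3). NOD.Ln82-LCMV mice had received the same control peptide (n = 4) or gp33 (n = 5). The LCMV element in both strain names and the Ln82 segment of one of them are not described in the labels, and neither is any processing batch, so strain and batch cannot be told apart. The series title puts Nfkbid, a gene of the diabetes locus Idd7, at the centre of the question of how CD8 T cells are deleted in the NOD thymus.

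Glucocorticoids cross the cell membrane and bind the receptor that Nr3c1 encodes, which is held by chaperones until the hormone binds and it moves to the nucleus. Receptor dimers bind palindromic DNA elements and raise nearby genes within hours. Thymocytes are sensitive to these hormones, and double-positive thymocytes die readily when exposed to them. Metallothioneins bind zinc and copper. Their genes respond to metals through the factor MTF1 and also to glucocorticoids and inflammatory signals. Several of the other genes, Per1 and Sgk1 among them, are also known to respond to signals other than glucocorticoids.

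In NOD.LCMV mice 4 of the 10 genes rose after gp33 and none fell. Mt2 rose 2.78-fold, Per1 2.02-fold, Mt1 1.65-fold and Sgk1 1.19-fold. Tsc22d3 and Fkbp5, which are among the genes most often used to read glucocorticoid action, stood at the same mean level with either peptide to within 0.02 log2. In NOD.Ln82-LCMV mice none of the 10 genes was called. A gene was called where limma's moderated test stayed under 0.05 after the Benjamini-Hochberg adjustment across the 19938 genes. By that rule 7.29% of all genes were called higher and 12.5% lower in NOD.LCMV, so 4 genes higher of 10 compares with 7.29% of the array. The median difference of the 10 genes was 0.12 log2 (all genes −0.03). Values throughout are log2 expression, and levels are compared within a gene, not between genes. Since the tissue was taken whole, fewer cells of a type and less RNA per cell cannot be told apart.

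**Figure D1:**
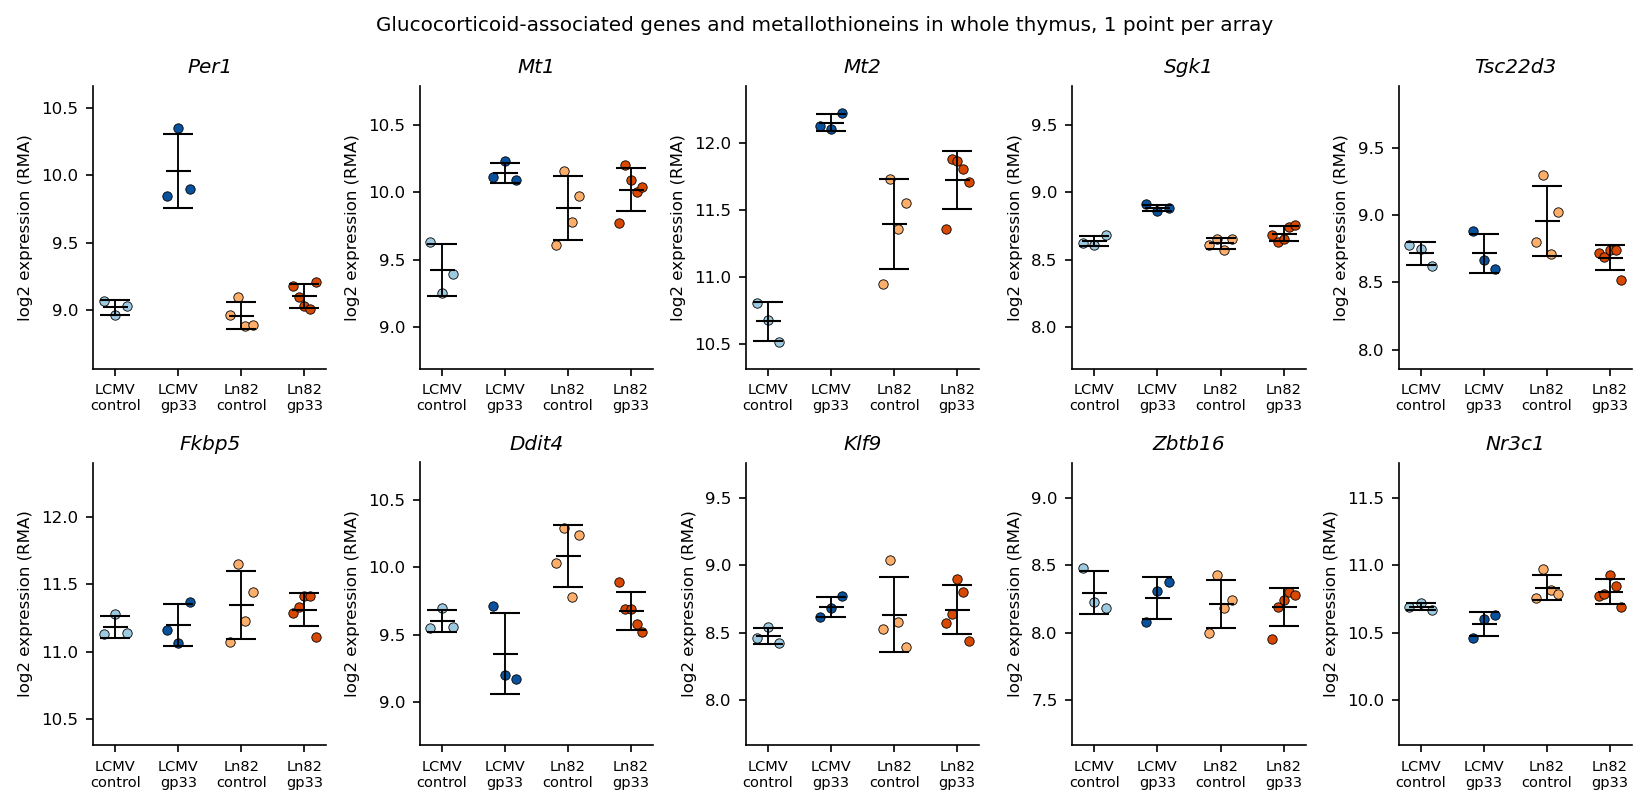
Log2 expression (y axis) of the 10 genes in the 4 groups (x axis: strain, LCMV for NOD.LCMV and Ln82 for NOD.Ln82-LCMV, over peptide). Each point is 1 array, and bars give the group mean ± SD, n = 3, 3, 4 and 5. All panels span the same log2 range. The NOD.LCMV arrays with gp33 stand above their controls for Per1, Mt1, Mt2, Sgk1 and Klf9, and below them for Nr3c1. Of these, Klf9 and Nr3c1 were not called. The share of all genes separated in this way in NOD.LCMV was not counted. Both strains overlap for Fkbp5 and Zbtb16.

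Mt2 gave the largest difference of the 10 genes. In NOD.LCMV it stood at 10.81, 10.68 and 10.52 with the control peptide and at 12.12, 12.10 and 12.22 with gp33. In NOD.Ln82-LCMV it stood at 10.95, 11.73, 11.36 and 11.55 with the control peptide and at 11.36, 11.88, 11.86, 11.80 and 11.71 with gp33. The 3 NOD.LCMV arrays with gp33 were the highest of all 15 and the 3 NOD.LCMV controls the lowest, with all NOD.Ln82-LCMV arrays between them. The difference in NOD.LCMV was 1.48 ± 0.16 (SE), a 2.78-fold rise (95% interval 2.19 to 3.54; limma adjusted p = 9.96e-06).

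Mt1, the neighbouring metallothionein gene, moved less. It stood at 9.63, 9.25 and 9.39 in NOD.LCMV controls and at 10.11, 10.23 and 10.09 with gp33. In NOD.Ln82-LCMV it stood at 9.61, 10.16, 9.78 and 9.97 with the control peptide and at 9.77, 10.20, 10.09, 10 and 10.04 with gp33. In NOD.Ln82-LCMV the control arrays spanned almost the whole range of the arrays with gp33. The rise in NOD.LCMV was 1.65-fold (95% interval 1.36 to 2.00), or 0.72 ± 0.13 log2 (SE; limma adjusted p = 0.000952).

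Per1, a period gene of the circadian clock, stood at 9.07, 8.96 and 9.03 in NOD.LCMV controls and at 9.85, 10.35 and 9.90 with gp33. In NOD.Ln82-LCMV it stood at 8.96, 9.10, 8.88 and 8.89 with the control peptide and at 9.18, 9.10, 9.03, 9.01 and 9.21 with gp33. All 12 arrays outside the NOD.LCMV gp33 group lay between 8.88 and 9.21. The rise in NOD.LCMV was 1.01 ± 0.10 log2 (SE), or 2.02-fold (95% interval 1.73 to 2.36; limma adjusted p = 4.97e-06).

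Sgk1 encodes a serum- and glucocorticoid-regulated kinase. It stood at 8.62, 8.61 and 8.68 in NOD.LCMV controls and at 8.91, 8.86 and 8.88 with gp33. In NOD.Ln82-LCMV it stood at 8.61, 8.65, 8.57 and 8.65 with the control peptide and at 8.68, 8.63, 8.65, 8.74 and 8.76 with gp33. Arrays of a group differed little, and the 3 NOD.LCMV arrays with gp33 again stood above all 12 others. The rise was small, 1.19-fold (95% interval 1.11 to 1.27), with a difference of 0.25 ± 0.04 log2 (SE; limma adjusted p = 0.000997).

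The 4 genes that rose differ in the sequence before their annotated starts, shown here because these are the stretches in which receptor, metal and cyclic AMP elements can be looked for. RefSeq start sites on GRCm38.p6 were searched for 8 of the 10 genes, with 16 starts in all. Nr3c1 and Zbtb16 were not part of the search, so nothing is said here of their sequence. For each start the 250 bases upstream were searched on both strands. Glucocorticoid response element letters were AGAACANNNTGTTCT, with a relaxed form GNACANNNTGTNC that contains it. Metal response element core letters were TGCACNC or TGCGCNC, cyclic AMP element letters TGACG and E-box letters CACGTG. Sequences run 5′ to 3′ on the gene's own strand, and capitals mark matches to these letters, except that the cyclic AMP letters are capitalised in Per1 only. The windows were Mt2 chr8:94172368-94172617 (+), Mt1 chr8:94178839-94179088 (+), Per1 start 1 chr11:69098699-69098948 (+), Per1 start 2 chr11:69099902-69100151 (+) and Sgk1 start 5 chr10:21993640-21993889 (+).
Mt2: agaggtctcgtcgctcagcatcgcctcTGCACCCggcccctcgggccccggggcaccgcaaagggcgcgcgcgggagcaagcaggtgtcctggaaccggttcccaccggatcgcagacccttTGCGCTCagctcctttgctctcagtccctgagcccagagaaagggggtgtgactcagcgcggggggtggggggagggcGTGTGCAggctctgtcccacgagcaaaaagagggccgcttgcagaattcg
Mt1: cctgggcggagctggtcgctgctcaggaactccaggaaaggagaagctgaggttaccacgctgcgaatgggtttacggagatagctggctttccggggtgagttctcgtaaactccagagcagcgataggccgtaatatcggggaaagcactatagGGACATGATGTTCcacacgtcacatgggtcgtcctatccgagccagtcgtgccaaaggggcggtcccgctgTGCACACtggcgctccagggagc
Per1, start 1: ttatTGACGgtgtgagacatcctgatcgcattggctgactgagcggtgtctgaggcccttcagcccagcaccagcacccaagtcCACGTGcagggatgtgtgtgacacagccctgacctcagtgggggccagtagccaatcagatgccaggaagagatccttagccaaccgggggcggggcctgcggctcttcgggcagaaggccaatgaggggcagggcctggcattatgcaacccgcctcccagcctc
Per1, start 2: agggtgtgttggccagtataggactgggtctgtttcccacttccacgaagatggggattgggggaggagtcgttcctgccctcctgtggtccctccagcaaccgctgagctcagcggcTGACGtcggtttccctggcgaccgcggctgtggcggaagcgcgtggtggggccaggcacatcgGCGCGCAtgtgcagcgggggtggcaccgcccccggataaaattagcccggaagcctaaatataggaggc
Sgk1, start 5: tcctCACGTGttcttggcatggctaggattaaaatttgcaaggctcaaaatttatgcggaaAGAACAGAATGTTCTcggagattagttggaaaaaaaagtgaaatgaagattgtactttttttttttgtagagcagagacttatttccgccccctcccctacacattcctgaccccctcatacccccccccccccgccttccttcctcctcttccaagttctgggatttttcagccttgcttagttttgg

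Mt2 held 3 metal core matches in its window, namely TGCACCC at 223 to 217 bases before the start, TGCGCTC at 128 to 122 bases and, read on the other strand, GTGTGCA at 50 to 44 bases. Of all 32851 RefSeq windows of this length, 21.4% held at least 1 such match and 1.26% held 3 or more. Mt1 held 1 metal core match, TGCACAC, with 1 relaxed receptor match, GGACATGATGTTC. The relaxed receptor letters were found in 127 windows (0.387%). Sgk1 held the full palindrome, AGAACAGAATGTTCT, from 189 to 175 bases before its start 5, a match found in 3 windows of the whole table (0.00913%). Sgk1 had 6 starts searched, and the windows of its other starts held neither the full nor the relaxed receptor letters. Both Per1 windows held the cyclic AMP letters, as did 17.8% of all windows, and the first also held an E-box (6.02%). The second Per1 window held 1 metal core match as well. The cyclic AMP, E-box and metal core letters were not particular to the genes named so far. Among the windows searched, receptor letters were found only in those of Mt1 and Sgk1 start 5. The cyclic AMP letters also lay in the windows of Mt1, Sgk1 start 2, Tsc22d3 start 2 and Klf9. An E-box also lay in those of Fkbp5 and Sgk1 start 5, and a metal core match in that of Ddit4. Neither the full nor the relaxed receptor letters were found in the windows of Tsc22d3, Fkbp5, Per1, Ddit4, Mt2 or Klf9, which says only that these letters are not in 250 bases. The array does not tell which start was used. Bases after the annotated starts were not searched, so all counts of matches hold for these windows only.

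**Figure D2:**
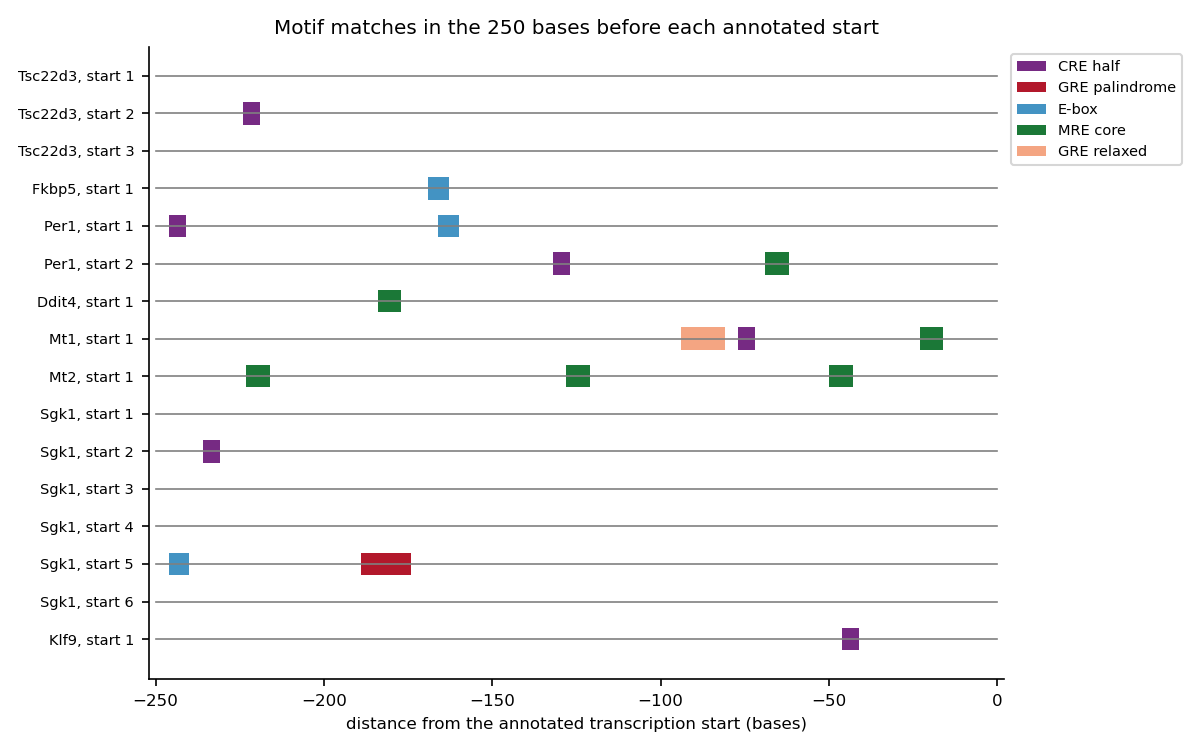
Motif matches (coloured blocks) along the 250 bases before each of 16 annotated starts of 8 genes, 1 line per start, with distance from the start in bases on the x axis. Where the full receptor palindrome was found, its relaxed form is not drawn. Mt2 holds 3 metal cores (MRE), and the full palindrome (GRE) lies in 1 window, that of Sgk1 start 5.

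The other 6 genes were not called in NOD.LCMV. Tsc22d3 encodes GILZ, a leucine zipper protein that carries part of the anti-inflammatory action of glucocorticoids. It stood at 8.78, 8.75 and 8.62 with the control peptide and at 8.88, 8.67 and 8.60 with gp33. Its mean was 8.72 in both groups, and the interval of the difference reached from −0.26 to 0.26. Fkbp5, a co-chaperone that lowers the receptor's hormone binding, stood at 11.13, 11.28 and 11.14 and at 11.16, 11.06 and 11.37. Its difference was 0.01 ± 0.12 (SE; 95% interval −0.25 to 0.28). For both genes these intervals leave out rises of the size seen for Mt2, Mt1 and Per1, but the interval of Tsc22d3 and that of Fkbp5 hold the 0.25 seen for Sgk1.

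Ddit4 encodes REDD1, a brake on mTOR signalling. It stood at 9.55, 9.70 and 9.56 in NOD.LCMV controls and at 9.71, 9.20 and 9.17 with gp33. Its arrays with gp33 split into 1 above all controls and 2 below them, and the difference of −0.24 ± 0.14 (SE) was not called (limma adjusted p = 0.306). Without that 1 array, replicate 1 of NOD.LCMV with gp33, the difference was −0.42 and was called. Klf9, a Krüppel-like repressor, stood at 8.46, 8.54 and 8.42 and at 8.62, 8.68 and 8.77. The difference between its 2 NOD.LCMV groups, 0.22 ± 0.14 (SE), was not called (limma adjusted p = 0.343). With those 2 groups fitted alone Klf9 was called.

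Zbtb16 encodes PLZF, a zinc finger factor of innate-like T cells that is strongly induced by glucocorticoids in several tissues. It stood between 7.95 and 8.48 over all 15 arrays, and its difference in NOD.LCMV was −0.04 ± 0.12 (SE). The receptor gene Nr3c1 stood at 10.69, 10.72 and 10.67 in NOD.LCMV controls and at 10.46, 10.60 and 10.63 with gp33. The difference of −0.13 ± 0.07 (SE) was not called (limma adjusted p = 0.223). With arrays weighted by quality the difference was −0.17 and was called.

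In NOD.Ln82-LCMV none of the 10 genes was called, as in limma only 1 of 19938 genes was (0.00502%). At an unadjusted p under 0.05, 3 of the 10 genes passed, against 5.97% of all genes (1190 of 19938). Ddit4 stood at 10.03, 10.29, 9.78 and 10.24 with the control peptide and at 9.89, 9.69, 9.69, 9.58 and 9.52 with gp33. Its difference was −0.41 ± 0.12 (SE; 95% interval −0.66 to −0.16; limma adjusted p = 0.623). Tsc22d3 stood at 8.80, 9.30, 8.71 and 9.02 with the control peptide and at 8.72, 8.69, 8.74, 8.74 and 8.52 with gp33. Its difference was −0.28 ± 0.10 (SE; limma adjusted p = 0.741). For Mt2 the difference was 0.32 ± 0.13 (SE; limma adjusted p = 0.806). The groups overlapped for all 10 genes, while 302 of 19938 genes (1.51%) had groups that did not overlap. The controls ran from 11.07 to 11.65 for Fkbp5, from 8.39 to 9.04 for Klf9 and from 10.76 to 10.97 for Nr3c1. The arrays with gp33 ran from 11.11 to 11.41, 8.44 to 8.90 and 10.69 to 10.93 in the same order.

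Replicate 2 of the NOD.Ln82-LCMV controls was the highest of its 4 arrays for all 10 genes, tied with replicate 4 for Sgk1. It also had the highest mean level of the 11 measured adipocyte markers of all 15 arrays, 9.77, against 8.14 to 9.45 in the other 3 control arrays and 8.20 to 9.48 with gp33. Without it the difference of Tsc22d3 in NOD.Ln82-LCMV was −0.16 and that of Ddit4 −0.34. The part of adipocyte RNA in these values was not tested.

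**Figure D3:**
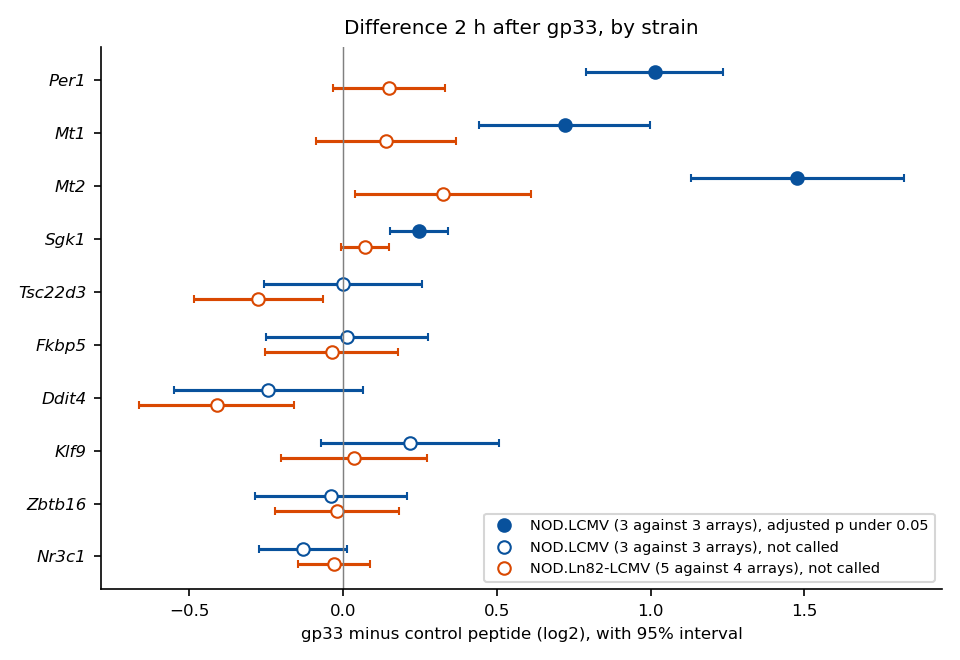
Difference between gp33 and the control peptide (x axis, log2) for the 10 genes (y axis) in NOD.LCMV (blue) and NOD.Ln82-LCMV (orange), with 95% intervals from the model's standard error. Filled points were called, and open points were not. In NOD.LCMV, Per1, Mt1, Mt2 and Sgk1 are called, with differences of 1.01, 0.72, 1.48 and 0.25, and in NOD.Ln82-LCMV none is.

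The difference between the responses of the strains, tested in the same model, was called for 3 of the 10 genes, all larger in NOD.LCMV. On the array 4.46% of genes were called in that direction and 4.26% in the other. Per1 differed by 0.86 ± 0.14 log2 (SE; limma adjusted p = 0.000687) and Mt2 by 1.15 ± 0.21 (adjusted p = 0.00249). Mt1 differed by 0.58 ± 0.17 with an adjusted p of 0.0444, and lost the call when any of 12 of the 15 arrays was left out. Sgk1 differed by 0.17 ± 0.06 and was not called (limma adjusted p = 0.0804), so its rise in NOD.LCMV alone was not shown to differ between the strains. For Tsc22d3 the difference of 0.28 ± 0.16 was not called (limma adjusted p = 0.36).

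The strains also differed where gp33 had not been given. With the control peptide 3 of the 10 genes were lower in NOD.LCMV than in NOD.Ln82-LCMV and none was higher, where the array had 5.54% of genes lower and 4.77% higher. Mt2 was 1.66-fold lower (95% interval 1.32 to 2.07), with means of 10.67 ± 0.15 (SD, n = 3) and 11.40 ± 0.33 (SD, n = 4; limma adjusted p = 0.00671). Ddit4 was 1.40-fold lower, with means of 9.60 ± 0.08 (SD, n = 3) and 10.09 ± 0.23 (SD, n = 4; limma adjusted p = 0.033). Mt1 was 1.37-fold lower, with groups that overlapped by 1 array of each (limma adjusted p = 0.0257). Mt2 kept its call whichever array was left out. Ddit4 lost it under 5 of the 15 and Mt1 under 4, among them replicate 2 of the NOD.Ln82-LCMV controls, without which only Mt2 was called. Ddit4 also lost its call with arrays weighted by quality (−0.32 in place of −0.48), and Mt1 with those 2 groups fitted alone.

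With gp33 3 of the 10 genes were higher in NOD.LCMV and 1 was lower, where the array had 10.2% of genes higher and 16.8% lower. Per1 was higher by 0.93 ± 0.09 log2 (SE; limma adjusted p = 2.79e-06) and Sgk1 by 0.19 ± 0.04 (adjusted p = 0.00202). Mt2 was higher by 0.42 ± 0.15 (limma adjusted p = 0.0411), a call lost when any of 8 of the 15 arrays was left out. Thus Mt2 was lower in NOD.LCMV than in NOD.Ln82-LCMV with the control peptide and higher with gp33. Nr3c1 was lower by −0.24 ± 0.06 log2, or 1.18-fold (limma adjusted p = 0.00622), with means of 10.56 ± 0.09 (SD, n = 3) and 10.81 ± 0.09 (SD, n = 5). Mt1 stood at 10.14 ± 0.08 (SD, n = 3) and 10.02 ± 0.16 (SD, n = 5) and was not called (limma adjusted p = 0.534). Markers of several cell types also differed between the strains with gp33. In NOD.LCMV 7 of 10 granulocyte markers were called higher. Called lower were 7 of 11 macrophage and dendritic cell, 6 of 10 epithelial, 5 of 9 double-positive thymocyte and 3 of 4 B cell markers. None of these lists had a marker called in the other direction. The part of such shifts in the strain differences of the 10 genes was not tested.

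Of 23 measured other genes known to respond to glucocorticoids, 6 rose in NOD.LCMV after gp33, 3 fell and 14 were not called, with a median of 0.07 (all genes −0.03). Over all genes 7.29% were called higher and 12.5% lower in NOD.LCMV, the shares to set beside these counts and those of the lists below. The mean level of the 23 was 9.03 to 9.29 in the controls and 9.31 to 9.43 with gp33, a shift that rests on the few genes with the largest rises. The genes that rose were Errfi1, which restrains the EGF receptor (1.59 ± 0.15 log2, SE), Nfkbia, the inhibitor of NF-κB (1.14 ± 0.06), Zfp36, which speeds mRNA decay (0.94 ± 0.05), the phosphatase gene Dusp1 (0.82 ± 0.09), Lcn2, a protein of neutrophil granules among other sources (0.80 ± 0.25) and Cebpd (0.23 ± 0.06). Txnip (−0.41 ± 0.09), Sesn1 (−0.50 ± 0.08) and Mertk (−0.53 ± 0.11) fell. In NOD.Ln82-LCMV none of the 23 was called, and 4 passed an unadjusted p under 0.05 in limma, as 5.97% of all genes did. Errfi1 stood at 10.18 to 10.35 in NOD.LCMV controls and 11.65 to 11.96 with gp33, against 9.80 to 10.53 over all NOD.Ln82-LCMV arrays.

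The clock genes around Per1 moved in both directions in NOD.LCMV, with 5 of 15 measured higher and 2 lower. Bhlhe40, a repressor of clock genes, rose by 1.60 ± 0.14 log2 (SE), from 7.61, 7.95 and 7.61 to 9.36, 9.24 and 9.38. Ciart, another repressor of the clock, rose by 1.38 ± 0.16, from 6.92, 6.60 and 6.77 to 8.29, 7.75 and 8.40. Per2 rose by 0.56 ± 0.07, Nfil3 by 0.49 ± 0.09 and Nr1d2 by 0.22 ± 0.06. Dbp, a clock output gene, fell by 0.58 with an SE of 0.08. Nr1d1, the REV-ERBα gene, fell by 0.44 with an SE of 0.15, and lost the call under both other scalings of the arrays, which left 1 clock gene lower. Nr1d1 also differed between the strains. With the control peptide it stood at 8.58 to 8.86 in NOD.LCMV and 9.13 to 9.78 in NOD.Ln82-LCMV, a difference of −0.67 ± 0.14 (SE; limma adjusted p = 0.00638).

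Of 16 measured genes of the receptor machinery, 2 rose in NOD.LCMV and 4 fell. Hspa4 (0.28 ± 0.05 log2, SE) and Ptges3, the p23 co-chaperone (0.29 ± 0.06), rose. The coactivator genes Ncoa1 (−0.28 ± 0.05), Crebbp (−0.26 ± 0.05) and Ep300 (−0.25 ± 0.05) fell, as did Hsd11b1, whose enzyme regenerates active glucocorticoid (−0.31 ± 0.10). With the control peptide Fkbp4, a co-chaperone related to Fkbp5, was 1.36-fold lower in NOD.LCMV (−0.44 ± 0.06, SE; limma adjusted p = 0.000389), while Crebbp (0.27 ± 0.05) and Ep300 (0.23 ± 0.05) were higher. Under median centring 3 genes of this list were lower.

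Metal handling genes gave little beside Mt1 and Mt2. Of 14 measured, Slc39a14, a zinc importer gene, rose by 0.37 ± 0.09 log2 (SE) and Slc39a8 fell by 0.15 with an SE of 0.05. Under both other scalings of the arrays 2 rose and none fell. With the control peptide Hmox1, the heme oxygenase gene, was lower in NOD.LCMV (−0.41 ± 0.10, SE; limma adjusted p = 0.0156) and Slc30a1, a zinc exporter gene, was slightly higher (0.23 ± 0.07; adjusted p = 0.0407), a call lost under both other scalings.

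Among 15 stress and mTOR brake genes near Ddit4 in function, Atf4 rose (0.41 ± 0.06 log2, SE) and Txnip fell. Of 19 family relatives of the 10 genes, 4 rose and 2 fell in NOD.LCMV. Klf6 (0.86 ± 0.07), Per2, Klf10 (0.49 ± 0.09) and Tsc22d2 (0.33 ± 0.06) rose, while Klf13 (−0.31 ± 0.07) and Tsc22d4 (−0.22 ± 0.05) fell. Tsc22d2 and Klf6 thus changed where Tsc22d3 and Klf9 did not pass the test, although the differences between relatives were not tested. In NOD.Ln82-LCMV limma called none of the genes of these lists. At an unadjusted p under 0.05, which 5.97% of all genes passed there, 4 of 16 genes of the receptor machinery passed, 1 of 15 clock genes, 1 of 14 metal handling genes, 1 of 19 relatives and 0 of 15 stress genes.

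**Figure D4:**
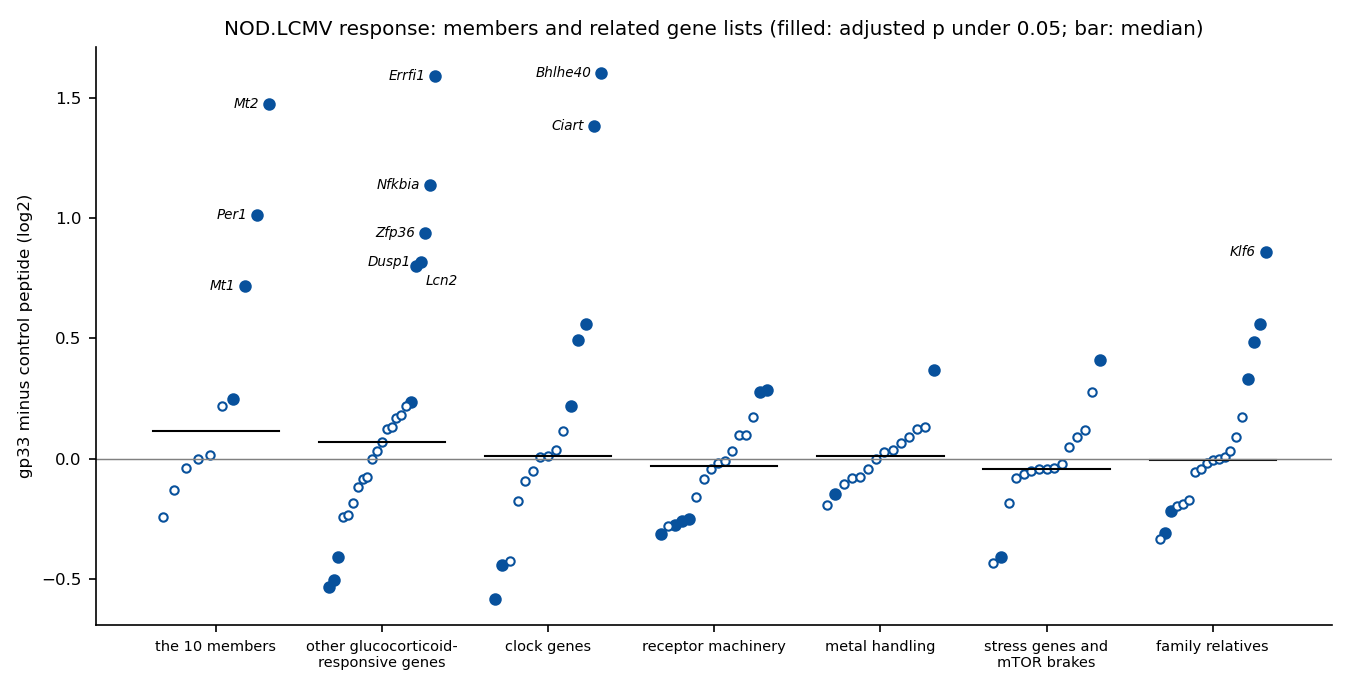
Difference between gp33 and the control peptide in NOD.LCMV (y axis, log2) for the 10 genes and 6 lists of related genes (x axis), with 1 point per gene in order of its value within a list. Filled points were called, open points were not, and bars give medians. Errfi1 at 1.59 and Bhlhe40 at 1.60 exceed Mt2 at 1.48, while the medians of the lists lie near 0.

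Markers of some other cells moved with gp33 in NOD.LCMV too. Of 10 granulocyte markers 7 rose, with a mean level of 7.09 to 7.31 in controls and 7.85 to 8.13 with gp33. Retnlg, the one with the largest rise, went from 5.79 ± 0.07 to 7.46 ± 0.10 (SD, n = 3 each). The granule genes Camp, Ltf and Ngp did not share the rise. Their means were 7.26, 7.07 and 8.39 in controls and 7.19, 6.98 and 8.49 with gp33. Of 9 markers of double-positive thymocytes 5 fell, with means of 11.17 to 11.41 and 10.61 to 11.24. Macrophage and dendritic cell markers had 3 of 11 lower, epithelial markers 2 of 10, endothelial markers 2 of 7 and fibroblast markers 1 of 7. Over all genes 7.29% were called higher and 12.5% lower in NOD.LCMV, so the epithelial and fibroblast counts lie near the share of all genes. Not all of the epithelial means fell. Endothelial markers had a mean level of 8.38 to 8.71 in controls and 8.18 to 8.26 with gp33. Of 11 genes of innate-like T, NK and γδ T cells 3 rose and 2 fell, with means of 6.98 to 7 and 7.16 to 7.37. Tbx21, a factor also induced in activated T cells, rose by 3.12 ± 0.13 log2 (SE). The rise of the list's mean rests on Tbx21, since the median difference of the 11 genes was 0.05 log2. Markers of adipocytes, B cells, skeletal muscle and red cells had none called in this comparison by limma, with 0 at an unadjusted p under 0.05. The part of these shifts in the values of the 10 genes was not tested. The thymocyte genes Rag1 and Cd4 were measured in every group, at means of 11.51 to 11.76 and 11.77 to 12.34.

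Across arrays, Mt1 and Mt2 varied together also within groups. With each group's mean taken out, Pearson's r was 0.854 over 15 arrays (within-group permutation p = 0.00272, adjusted over 4 pairs 0.0109) and Spearman's rho 0.788 (permutation p = 0.00973, adjusted 0.0389). Leaving out the 2 arrays farthest from the median gave r = 0.753. Mt2 and Fkbp5 had r = 0.703 (permutation p = 0.0294, adjusted 0.0588) and rho 0.645 (permutation p = 0.0271), and without the 2 farthest arrays r was 0.723. Tsc22d3 and Fkbp5 had r = 0.683 (permutation p = 0.0614, adjusted 0.0819) and rho 0.531 (permutation p = 0.112), and r fell to 0.457 without the 2 farthest arrays. Mt2 and Per1, the 2 genes with the largest responses, had r = −0.065 within groups (permutation p = 0.78) and rho −0.104. Of these 4 pairs only Mt1 and Mt2 passed after adjustment. The points share arrays and their scaling.

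**Figure D5:**
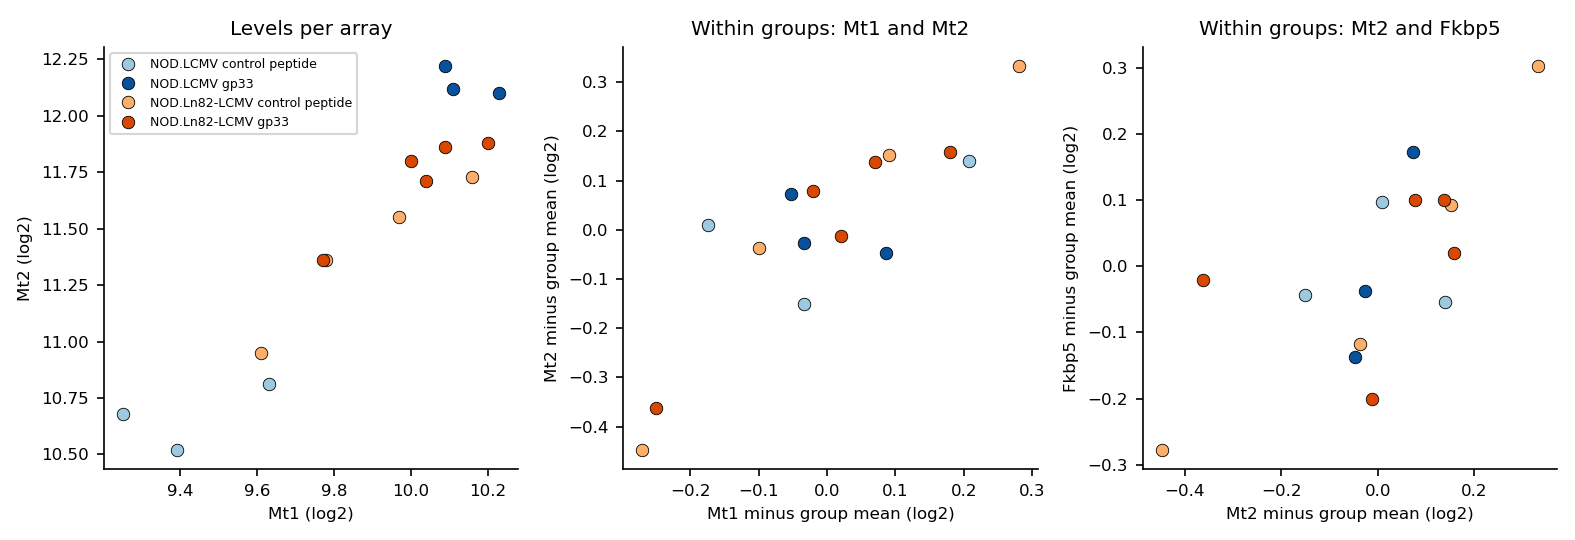
Left: log2 level of Mt2 against Mt1 in each of 15 arrays, coloured by group. Middle and right: the same arrays with each group's mean taken out, for Mt2 against Mt1 (r = 0.854) and for Fkbp5 against Mt2 (r = 0.703), all axes in log2.

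The genes most like each of the 10 over all 15 arrays, by Pearson's r among 17020 genes, are given as a description, since shared group differences enter r. Per1 was followed by Nfatc1, Cxcl2 and Sik1 (all r = 0.98), and Sgk1 by B3gnt2, Sh3bp2 and Birc3 (0.96 to 0.95). Mt2 was followed by Frmd4b (0.96), Ahr and Lap3 (both 0.94), and Mt1 by Frmd4b (0.90), Il33 and Pnp. Fkbp5 was followed by Sytl3 (0.91), Sec61a2 and Xdh, and Nr3c1 by Tsen15 (0.94), Tom1l1 and As3mt. Klf9 was followed by Prdx1 (0.88), Fam185a and Tnpo3, and Ddit4 by Cxcr4 (0.87), Mgat1 and Epha2. For Zbtb16 the closest were Loxl1 (0.79), Pcsk5 and Pde8a, and for Tsc22d3 Rcsd1 (0.77), Tert and Pcnx4, the lowest values of the 10.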

How the data were processed

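Whole-thymus RNA was measured on 15 Affymetrix arrays. The values deposited for 35556 probe sets are log2, made by the authors by RMA in Affymetrix Expression Console 1.1, per the submitters' processing notes. RMA corrects background, aligns the arrays' distributions and summarises probes, which compresses differences of dim genes. Medians of the arrays ran from 7.59 to 7.67 and correlations within groups were at least 0.9904. Precision is limited by the number of arrays. Probe sets with exactly 1 symbol (21789) gave 19938 genes, with the highest-mean probe set where several remained.

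A mean per group was fitted to all arrays with limma 3.58.1 in R 4.3.3 (11 residual, 14.9 total degrees of freedom), and contrasts were tested two-sided with Benjamini-Hochberg adjustment over all genes. The model was tried on simulated data with planted changes and independent noise for each gene. That checks the code only, since variation shared by the genes of an array was not simulated. Within-group correlations used 100000 permutations within groups. Promoter sequences were RefSeq's on GRCm38.p6. Alternatives were other scalings, probe-set rules, array weights, a variance trend, a limit of 1.5-fold, leaving out the dimmest 33.3% of genes, fewer groups, a replicate block and leaving out each array.

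The 10 genes and the related lists were chosen with earlier results of these data known. Genes named were the 10, called list genes with up to the 4 smallest adjusted p per list and comparison, and the 3 genes most like each of the 10. Cebpd, Lcn2, Sesn1, Mertk, Nr1d2, Hsd11b1, Ptges3, Klf13, Tsc22d4, Retnlg, Camp, Ltf, Ngp, Tbx21, Rag1 and Cd4 were named outside that rule, after their values were seen.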

Additional observations from a re-analysis of the deposited data

Results flagged for a closer look

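Dixon's test was set for groups of 4 to 10 arrays, which here are those of NOD.Ln82-LCMV (n = 4 and 5). The NOD.LCMV groups (n = 3 each) were too small for it. Among 20 sets of values looked at, 1 held an array far from the rest, where about 1 in 20 is flagged by chance. This was Tsc22d3 in NOD.Ln82-LCMV with gp33, at 8.52 in replicate 5 against 8.69 to 8.74 in the other 4 arrays. That array also had the lowest weight when arrays were weighted by quality, 0.28.

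The response to gp33 differed between the strains for Per1 (0.86 log2), Mt2 (1.15) and Mt1 (0.58), each by limma's test of the difference between the responses and each larger in NOD.LCMV. For Mt1 this test lost its call when any of 12 of the 15 arrays was left out.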

How the results depend on the processing

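Of 1200 values of the 10 genes over the alternatives, 1112 kept their direction and their side of the threshold, 41 lost a call, 8 gained one and 39 changed sign, none of them a called value. The number of genes called with 1 array left out was 4 to 5 in NOD.LCMV, 0 to 0 in NOD.Ln82-LCMV, 2 to 3 for the difference between the responses, 1 to 3 for the strain difference with the control peptide (1 without replicate 2 or 3 of the NOD.LCMV controls or replicate 2 or 4 of the NOD.Ln82-LCMV controls) and 3 to 4 with gp33. A limit of 1.5-fold left 1 of 3 genes for the strain difference with the control peptide and 1 of 4 with gp33, and also ended the calls of Sgk1 in NOD.LCMV and of Mt1 in the difference between the responses. Signs turned, with differences near 0, for Zbtb16 in the difference between the responses (0.013 under a second quantile normalization and 0.011 under median centring), for the control strain difference of Sgk1 (−0.032 and −0.05) and Per1 (−0.0042, centring), and for the gp33 strain difference of Tsc22d3 (−0.002, centring) and Klf9 (−0.017 centring, −0.044 array weights). With array weights Fkbp5 turned in NOD.LCMV (−0.020), in NOD.Ln82-LCMV (0.033) and in the difference between the responses (−0.053). Mt1 lost its call in the difference between the responses over every probe set, and Mt2 its gp33 strain call over every probe set and under centring. Nr3c1 gained a call in the control strain difference under centring (−0.21). Sgk1 gained one in the difference between the responses under centring (0.20), with array weights (0.20) and without replicate 5 of NOD.Ln82-LCMV with gp33. Correlations with 1 array left out ran from 0.798 to 0.920 for Mt1 and Mt2, 0.522 to 0.809 for Mt2 and Fkbp5, 0.431 to 0.875 for Tsc22d3 and Fkbp5, and −0.302 to 0.036 for Mt2 and Per1, which was 0.071 without the 2 farthest arrays. With 1 array left out, uncalled differences crossed 0 in NOD.LCMV for Fkbp5 (−0.073 to 0.082) and Zbtb16 (−0.10 to 0.052). They did so in NOD.Ln82-LCMV for Fkbp5 (−0.13 to 0.063), Klf9 (−0.047 to 0.17), Nr3c1 (−0.060 to 0.016) and Zbtb16 (−0.091 to 0.052). They did so in the difference between the responses for Ddit4 (−0.0073 to 0.27), Fkbp5 (−0.050 to 0.14) and Zbtb16 (−0.092 to 0.072). They did so in the strain difference with the control peptide for Sgk1 (−0.0050 to 0.030) and Zbtb16 (−0.0075 to 0.16). They did so in that with gp33 for Klf9 (−0.037 to 0.077) and Tsc22d3 (−0.047 to 0.093). The cause of these changes was not tested.

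Same-numbered NOD.Ln82-LCMV arrays deviated from their group means with correlations of 0.12, 0.01, −0.05 and −0.23, so the numbers were not taken to pair the mice. With a replicate block 0 of the 10 genes were called in NOD.Ln82-LCMV, and Fkbp5 turned to 0.0125.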
